A study of Mus musculus with 12 samples.

Results

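Monocyte and neutrophil marker genes were followed in RNA of sorted microglia to see how much transcript of blood myeloid cells the sorted population held in each group and in each library. They were 9 genes chosen by symbol among the 55401 gene identifiers counted: the monocyte genes *Ly6c2*, *Chil3*, *Plac8*, *F10* and *Arg1*, and the neutrophil genes *S100a8*, *S100a9*, *Retnlg* and *Lcn2*. All 9 passed the filter on low counts. After transient focal cerebral ischemia (tFCI), 6 of the 9 were higher in HDAC3-deficient cells than in WT cells by edgeR. Of all genes tested, 4.08% were higher. The 4 neutrophil genes were all among the 6, whereas DESeq2 called 4 of the 9 and did not call *S100a8* or *S100a9*. Without ischemia, the comparison of genotypes hung on a single WT library that held 15.4 times as much *S100a8* transcript as the mean of its fellow replicates.

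The cells were CD45int CD11b+ cells of the brains of male mice, measured by RNA-seq in 12 libraries. WT mice were Cx3cr1 wt/wt:*Hdac3* loxp/loxp and miKO mice were Cx3cr1 CreER/wt:*Hdac3* loxp/loxp, so that both genotypes carried the floxed *Hdac3* alleles and the tamoxifen-inducible Cre recombinase, driven by *Cx3cr1*, was present in miKO mice alone. The comparisons of genotypes therefore cannot tell HDAC3 deficiency apart from the *Cx3cr1* allele that carries Cre. Mice received tamoxifen for 5 days at an age of 6 to 8 weeks. Sham surgery, or tFCI by occlusion of the middle cerebral artery for 60 min, followed at least 1 month later, and cells were isolated 3 days after surgery. Each genotype and surgery (WT-Sham and WT-tFCI, miKO-Sham and miKO-tFCI) had 3 libraries, and a library combined cells from 3 to 4 hemispheres, so that no value belongs to a single animal. *Cx3cr1* is also expressed by circulating monocytes. The interval between tamoxifen and surgery was meant to let unrecombined monocytes replace them.

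Microglia are the resident macrophages of the brain and settle there before birth, whereas monocytes and neutrophils are made in the bone marrow and circulate in blood. After an ischemic stroke, monocytes and neutrophils enter the injured tissue, where monocytes become macrophages and lose some of their blood markers as they do so. Sorting relies on CD45, which is intermediate on microglia and usually high on cells that came from blood, and a shift of CD45 on either side brings cells of the other kind into the gate. *Ly6c2* encodes a surface antigen of inflammatory monocytes, *Chil3* a secreted chitinase-like lectin, *Plac8* a small cysteine-rich protein of myeloid cells, *F10* coagulation factor X, and *Arg1* arginase 1, which cleaves arginine and is raised in monocyte-derived macrophages of injured tissue. *S100a8* and *S100a9* encode the subunits of calprotectin, the main cytosolic protein of neutrophils, *Retnlg* a resistin-like secreted protein of neutrophils, and *Lcn2* lipocalin 2, a granule protein that binds bacterial siderophores. *Lcn2* can also be induced in astrocytes, and *Arg1* and *Chil3* in other macrophages, so that a marker transcript in a bulk library is not a count of cells.

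The promoter sequences of the pair that stayed closest across libraries (*S100a8* and *S100a9*) and of the leading monocyte antigen and the leading monocyte lectin (*Ly6c2* and *Chil3*) are shown because binding motifs of myeloid transcription factors lie in them. They are RefSeq sequences on GRCm38.p6, read 5′ to 3′ on the strand of the gene, and hold those of the 250 bases before a RefSeq transcription start that lie outside the annotated gene. Capitals mark exact matches, on either strand, to the motifs searched.

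Ly6c2: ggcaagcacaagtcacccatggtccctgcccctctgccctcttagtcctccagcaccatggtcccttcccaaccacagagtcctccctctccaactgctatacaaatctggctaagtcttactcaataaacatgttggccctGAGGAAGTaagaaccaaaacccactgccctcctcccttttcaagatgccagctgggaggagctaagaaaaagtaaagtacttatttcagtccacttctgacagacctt
Chil3: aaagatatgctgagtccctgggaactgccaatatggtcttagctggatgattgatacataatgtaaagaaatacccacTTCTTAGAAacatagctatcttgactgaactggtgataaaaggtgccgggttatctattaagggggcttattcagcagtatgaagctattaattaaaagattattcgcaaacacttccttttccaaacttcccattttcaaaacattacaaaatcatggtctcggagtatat
S100a8: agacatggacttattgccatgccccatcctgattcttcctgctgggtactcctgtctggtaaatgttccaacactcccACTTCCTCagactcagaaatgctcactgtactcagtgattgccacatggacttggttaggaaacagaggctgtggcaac
S100a9: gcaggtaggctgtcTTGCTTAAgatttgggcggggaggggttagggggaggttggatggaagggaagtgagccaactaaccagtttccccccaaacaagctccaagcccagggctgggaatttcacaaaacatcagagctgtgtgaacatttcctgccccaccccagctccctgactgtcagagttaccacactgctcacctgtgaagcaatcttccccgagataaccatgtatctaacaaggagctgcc

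These stretches lie at chr15:75111972-75112221 (*Ly6c2*, minus strand), chr3:106167565-106167814 (*Chil3*, minus strand), chr3:90668821-90668977 (*S100a8*, plus strand) and chr3:90695722-90695971 (*S100a9*, minus strand). The motif GAGGAAGT of PU.1, the factor that sets the myeloid lineage, was found for *Ly6c2*, where it lay 108 to 101 bases before the start of the entry shown and once more within the gene before the start of its other entry, and on the opposite strand for *S100a8*, 172 to 165 bases before the start. It occurred in 2.44% of the 32851 promoter entries of the same length. The motif TTGCNNAA of C/EBP factors, which drive granulocyte genes, was found for *Lcn2*, *Plac8*, *Retnlg* and *S100a9*, and in 9.56% of all entries. In *S100a9* it lay 236 to 229 bases before the start, and the matches of *Lcn2* and *Plac8* lay within the annotated gene, before a later RefSeq start. The STAT motif TTCNNNGAA was found for *Chil3* alone among the genes, 172 to 164 bases before the start, and in 7.02% of all entries. The TATA box TATAAA was found for *S100a8*, 30 to 25 bases before the RefSeq start and so beyond the stretch shown, and in 12.4% of all entries. The AP-1 motif TGANTCA (6.75% of all entries) had no exact match in these windows. Of the 9 genes, 8 had a promoter entry, all but *Arg1*. No match overlapped a match of another motif.

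On GRCm38, *S100a8* (chr3:90668978-90670035, plus strand) and *S100a9* (chr3:90692632-90695721, minus strand) are neighbours. The others are *Chil3* (chr3:106147554-106167564, minus strand), *Lcn2* (chr2:32384633-32388252, minus strand), *Plac8* (chr5:100553725-100572245, minus strand), *F10* (chr8:13037308-13056676, plus strand), *Arg1* (chr10:24915221-24927484, minus strand), *Ly6c2* (chr15:75108158-75111970, minus strand) and *Retnlg* (chr16:48872621-48874496, plus strand). All are protein-coding, the counts are of reads on their exons, and none overlaps another annotated gene. Parts of some transcripts are repeated elsewhere: 13.1% of the 50-base windows of the *Ly6c2* transcript also occur in transcripts of another gene, most of them in the paralog *Ly6c1*, as do 29.4% of those of *Chil3*, most of them in *Chil4*. At 150 bases, the length of a read, no window of any of the 9 was shared.

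The libraries held 7697864 to 9452222 counts on genes (median 8226429.5). Levels are CPM, the counts relative to the library's total after TMM scaling. *Hdac3*, the targeted gene, was at 20.8 to 25.8 CPM in miKO-Sham beside 34.9 to 46.3 in WT-Sham. It was at 27.1 to 35.8 in miKO-tFCI beside 43.8 to 53.8 in WT-tFCI. The genotypes did not overlap within either surgery. The 12 microglia markers, *P2ry12* and *Tmem119* among them, were detected in all libraries and together reached 29594 to 36225 CPM in WT-Sham, 23436 to 29173 in miKO-Sham, 21272 to 22256 in WT-tFCI and 10616 to 17758 in miKO-tFCI. The labels place replicate 1 of each group in batch 1 and replicates 2 and 3 in batch 2. WT-Sham replicate 1 was above the mean of replicates 2 and 3 in 6 of the 9 genes, and the median ratio of the 9 was 12.2. It was below that mean in *Plac8*, *F10* and *Arg1*, at ratios of 0.928, 0.767 and 0.554. In miKO-Sham the labels and the counts did not go together, since replicates 1 and 2, of different batches, were closer (chi-square 2.82 per degree of freedom) than any other pair of replicates (3.65 to 76.6). Their counts still differed beyond the noise of counting, so each was used as a library of its own.

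Among the monocyte genes, *Chil3* and *Arg1* separated miKO-tFCI from the other groups, whereas *Ly6c2*, *Plac8* and *F10* were led by replicate 1 of the tFCI groups. Values are CPM in replicates 1, 2 and 3, in that order. *Ly6c2* stood at 19.7, 0.782 and 0 CPM in WT-Sham, at 10.3, 10.2 and 13.8 in miKO-Sham, at 22.9, 1.96 and 1.09 in WT-tFCI, and at 67.7, 11.2 and 11.3 in miKO-tFCI. Within both surgeries, replicates 2 and 3 of miKO were above those of WT, but replicate 1 of WT was above all 3 miKO libraries in Sham and above miKO replicates 2 and 3 in tFCI. The 0 in WT-Sham replicate 3 allows up to 0.307 CPM, the worth of 3 counts, as far as counting error goes. *Chil3* stood at 52.4, 5.59 and 3.99 CPM in WT-Sham, at 32.2, 30.6 and 62.6 in miKO-Sham, at 116.8, 48.4 and 44.4 in WT-tFCI, and at 303, 238 and 311 in miKO-tFCI. The 3 miKO-tFCI libraries were above all 9 others, with at least 1899 counts in each. *Plac8* stood at 2.88, 5.59 and 0.614 CPM in WT-Sham, at 1.11, 2.22 and 4.35 in miKO-Sham, at 15.9, 4.03 and 3.65 in WT-tFCI, and at 64.0, 5.51 and 2.71 in miKO-tFCI. Replicate 1 was the highest *Plac8* library of both tFCI groups and the other tFCI libraries lay within the range of the Sham libraries.

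*F10*, of which the liver makes the plasma protein, had few counts in most libraries. It stood at 0.60, 1.56 and 0 CPM in WT-Sham, at 0.139, 0.277 and 0 in miKO-Sham, at 8.59, 0.806 and 1.09 in WT-tFCI, and at 20.4, 3.01 and 2.22 in miKO-tFCI. In miKO-Sham these were at most 2 counts per library. *Arg1* stood at 1.32, 3.13 and 1.64 CPM in WT-Sham, at 1.80, 3.46 and 4.86 in miKO-Sham, at 47.4, 16.0 and 17.6 in WT-tFCI, and at 232, 121 and 130 in miKO-tFCI. The groups of *Arg1* formed 3 steps with no overlap between them, the Sham libraries lowest, WT-tFCI between and miKO-tFCI highest. Of the 9 genes it was the one in which every WT-tFCI library was above every Sham library.

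The neutrophil genes had no such step between miKO-Sham and WT-tFCI, and WT-Sham replicate 1 lay within the range of miKO-tFCI for the calprotectin subunits. *S100a8* stood at 272, 21.5 and 13.8 CPM in WT-Sham, at 89.1, 110.9 and 70.3 in miKO-Sham, at 54.8, 63.1 and 64.7 in WT-tFCI, and at 262, 332 and 297 in miKO-tFCI. *S100a9* followed it, at 240, 19.7 and 11.5 CPM in WT-Sham, at 93.1, 95.5 and 65.8 in miKO-Sham, at 47.6, 52.7 and 55.7 in WT-tFCI, and at 203, 272 and 245 in miKO-tFCI. The means ± SD (n = 3) of *S100a8* were 60.8 ± 5.32 CPM in WT-tFCI and 297 ± 34.7 in miKO-tFCI, but 102 ± 147 in WT-Sham, where 1 library set both numbers. Every WT-tFCI library lay below every miKO-Sham library in both genes.

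*Retnlg* stood at 5.40, 0 and 0.102 CPM in WT-Sham, at 2.63, 0.831 and 1.28 in miKO-Sham, at 5.61, 1.50 and 0.972 in WT-tFCI, and at 27.9, 10.9 and 4.81 in miKO-tFCI. Replicate 1 was the highest library of each group, and the lowest miKO-tFCI library was below WT-tFCI replicate 1. *Lcn2* stood at 32.1, 2.90 and 2.35 CPM in WT-Sham, at 18.7, 23.1 and 19.7 in miKO-Sham, at 22.0, 23.4 and 20.9 in WT-tFCI, and at 170, 118 and 99.7 in miKO-tFCI. The miKO-Sham and WT-tFCI ranges of *Lcn2* overlapped, and every miKO-tFCI library was above every other library. Whether the level of these genes comes from more cells of a type or from more transcript per cell cannot be told apart in bulk RNA.

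**Figure D1:**
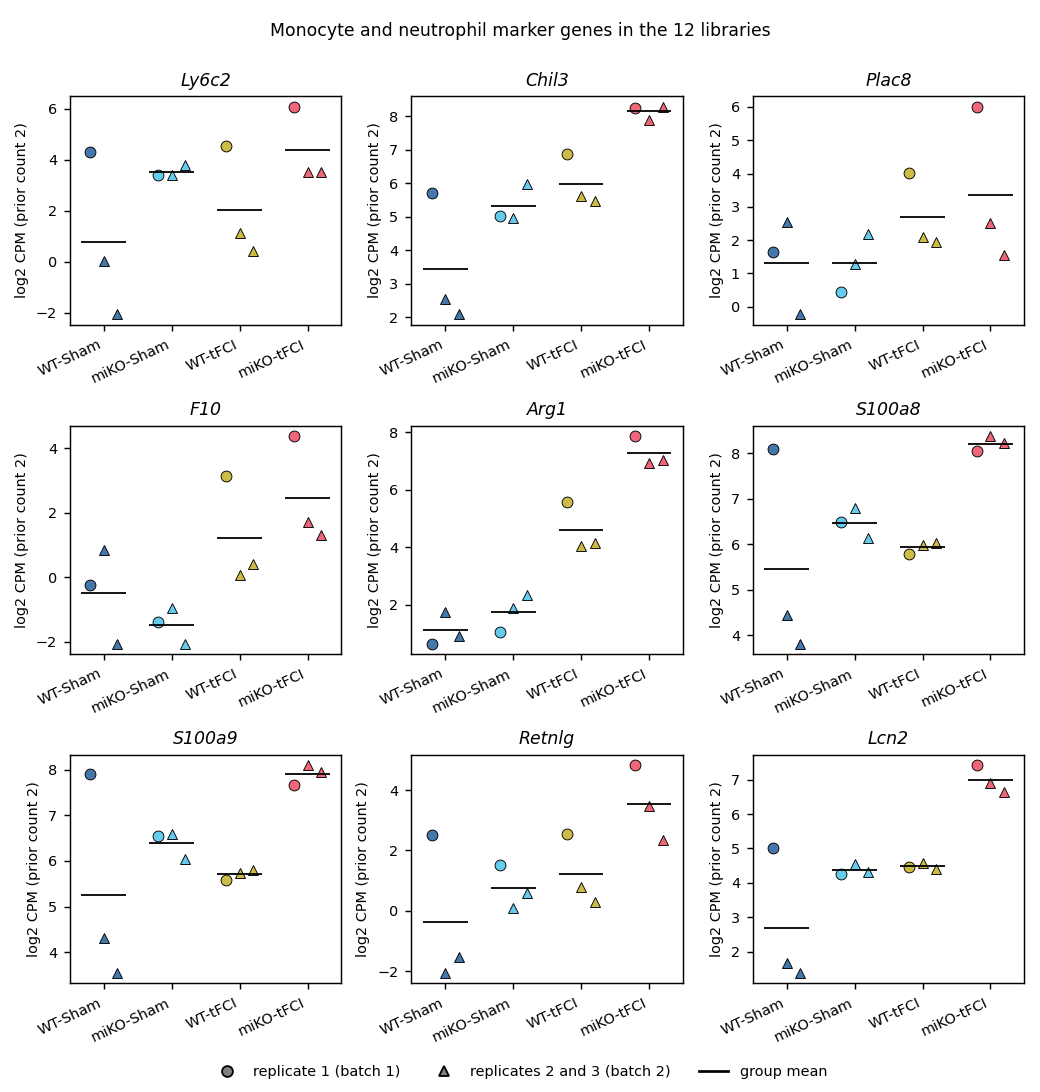
Level of each of the 9 genes in the 12 libraries, as log2 CPM with a prior count of 2 (vertical axis), by group (horizontal axis). Circles are replicate 1 (batch 1), triangles replicates 2 and 3 (batch 2) and lines the means of the 3 log2 values; *Chil3*, *Arg1*, *S100a8*, *S100a9* and *Lcn2* have all 3 miKO-tFCI libraries above all WT-tFCI libraries, and WT-Sham replicate 1 lies far above WT-Sham replicates 2 and 3 in *Ly6c2*, *Chil3*, *S100a8*, *S100a9*, *Retnlg* and *Lcn2*.

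Per length of transcript, the calprotectin genes were the most abundant of the 9 in all groups. In mean CPM per kilobase of exon, *S100a9* and *S100a8* stood at 460 and 428 in miKO-tFCI and *Chil3* came next at 174, followed by *Arg1* at 72.3, *Lcn2* at 49.4, *Retnlg* at 24.5, *Plac8* at 15.1, *Ly6c2* at 10.97 and *F10* at 3.13. In WT-Sham, the order began with *S100a9* at 172.9 and *S100a8* at 147 and ended with *Arg1* at 0.910 and *F10* at 0.264 CPM per kilobase. *Arg1* was the eighth in both Sham groups and the fourth in both tFCI groups. The library ranges of the neighbours *S100a9* and *S100a8* overlapped in each group. In both tFCI groups the ranges of *S100a8* and *Chil3*, and of *Chil3* and *Arg1*, were apart and those of all later neighbours overlapped, whereas in WT-Sham *Arg1* and *F10* were the one pair of neighbours apart. In miKO-Sham the ranges of *S100a8*, *Chil3*, *Lcn2* and *Ly6c2* followed each other without overlap, as did those of *Arg1* and *F10*.

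The difference between genotypes after ischemia was read from miKO-tFCI vs. WT-tFCI. Called genes have an adjusted p under 0.05 by edgeR with Benjamini-Hochberg adjustment over all 16451 genes tested and a log2 fold change beyond 0.58 in size. Of the 9 genes, 6 rose, where 4.08% of all genes tested rose. The median log2 fold change of the 9 was 2.24, beside 0.04 over all genes tested. The groups did not overlap in 5 of the 9 (9.50% of all genes were higher without overlap). *Arg1* rose with a log2 fold change of 2.63 (SE 0.33, adjusted p = 0.000206) and *Lcn2* with 2.48 (SE 0.51, adjusted p = 0.00680), and these were the 2 that stayed called in each of the 20 alternative settings. *Retnlg* rose by 2.57 (SE 0.61, adjusted p = 0.0162) and *Chil3* by 2.23 (SE 0.54, adjusted p = 0.0184) on the log2 scale. *S100a8* rose by 2.30 (SE 0.67, adjusted p = 0.0422) and *S100a9* by 2.24 (SE 0.66, adjusted p = 0.0452), both near the threshold. Neither was called by DESeq2, which called *Chil3*, *Arg1*, *Retnlg* and *Lcn2* (adjusted p = 0.0581 for *S100a8* and 0.0658 for *S100a9*), and *S100a9* was not called by edgeR with the replicate number as a block (2.23, adjusted p = 0.0508). Over all 20 alternatives the adjusted p ranged from 1.72e-39 to 0.143 for *S100a8* and from 1.10e-36 to 0.151 for *S100a9*, the lowest without a filter on low counts. Among the genes not called, *Ly6c2* had a log2 fold change of 2.16 (SE 0.73, adjusted p = 0.0743), *F10* of 1.30 (SE 0.73, adjusted p = 0.274) and *Plac8* of 1.20 (SE 0.80, adjusted p = 0.364).

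The direction was shared by the batches, with all 9 log2 differences above 0 in batch 1 (1 library per group, no test) and in batch 2. *S100a8* differed by 2.25 in batch 1 and 2.29 in batch 2, *Arg1* by 2.29 and 2.88, and *Plac8* by 2.00 and 0.02. *Plac8* therefore rested on replicate 1, and its log2 fold change was -0.64 without miKO-tFCI replicate 1. The number called changed with single libraries: 2 (*Arg1* and *Lcn2*) were called without any one of the WT-tFCI replicates 1, 2 or 3, and 3 without miKO-tFCI replicate 2 (*Chil3*, *Arg1* and *Lcn2*) or 3 (*Arg1*, *Retnlg* and *Lcn2*), while the log2 fold change of *S100a8* stayed between 1.87 and 2.66 when any library was left out. Without WT-Sham replicate 1, which is not part of this comparison but enters the estimate of the spread, 7 were called and the SE of *S100a8* was 0.18 in place of 0.67. The summed level of the microglia markers moved the other way, and 7 of those 12 fell in this comparison (4.71% of all genes fell). *Cx3cr1* was among the 7, and miKO mice carry Cre at 1 *Cx3cr1* allele. For this gene, the part of that allele cannot be told apart from that of HDAC3 deficiency.

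The response to ischemia in WT cells was read from WT-tFCI vs. WT-Sham. Of the 9 genes, 2 rose, where 20.9% of all genes tested rose, and the groups did not overlap in 1 (26.9%). *Arg1* rose with a log2 fold change of 3.59 (SE 0.43, adjusted p = 1.61e-05 by edgeR) and *Chil3* with 2.04 (SE 0.57, adjusted p = 0.0111). The median of the 9 was 1.05, beside 0.02 over all genes tested. The neutrophil genes gave no call: the log2 fold change was -0.18 (SE 0.73) for *S100a8*, -0.21 (SE 0.72) for *S100a9*, 1.05 (SE 0.68) for *Retnlg* and 1.22 (SE 0.55) for *Lcn2*. *S100a8*, *S100a9* and *Lcn2* went opposite ways in the batches, and *S100a8* differed by -2.31 on the log2 scale in batch 1 and by 1.88 in batch 2. Without WT-Sham replicate 1, 6 of the 9 were called. They were *Chil3* (3.63), *Arg1* (3.06), *S100a8* (1.81), *S100a9* (1.75), *Lcn2* (2.97) and *Retnlg*, which then had 0 and 1 counts in the remaining WT-Sham libraries. The share of all genes called without WT-Sham replicate 1, which also enters the estimate of the spread, was not set beside this count. *Chil3* was not called without WT-Sham replicate 3 or WT-tFCI replicate 1, which left 1 called, and *Plac8* and *F10* replaced it without WT-Sham replicate 2, at 3 called. *S100a8* and *S100a9* therefore had no direction in WT-tFCI vs. WT-Sham that held across libraries, while *Arg1* was called in all 20 alternatives.

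**Figure D2:**
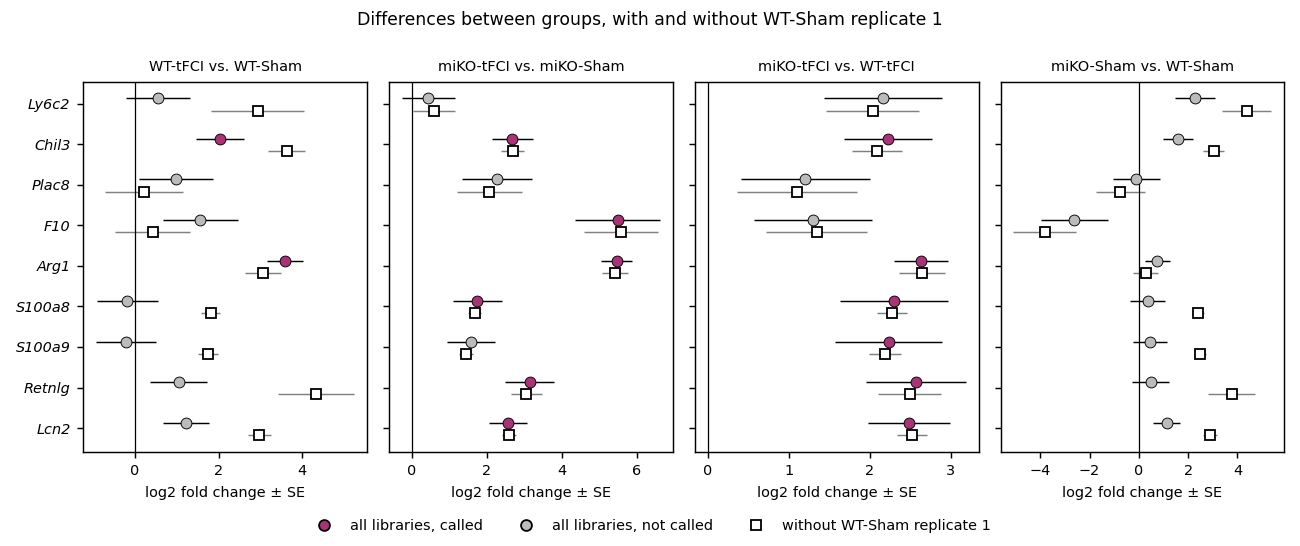
Log2 fold change with SE (horizontal axis) of each gene in 4 comparisons, as filled points from all 12 libraries (magenta where called, gray where not) and open squares without WT-Sham replicate 1. For *S100a8*, *S100a9*, *Retnlg* and *Lcn2* the squares lie to the right of the points in both comparisons with WT-Sham, whereas in miKO-tFCI vs. WT-tFCI the value of *S100a8* is 2.30 with that library and 2.27 without it.

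The response to ischemia in HDAC3-deficient cells was read from miKO-tFCI vs. miKO-Sham. In it, 6 of the 9 rose, where 21.9% of all genes tested rose, and 7 were higher without overlap between groups (26.5%). *Arg1* rose by 5.47 (SE 0.41, adjusted p = 2.69e-07 by edgeR), *Retnlg* by 3.15 (SE 0.66, adjusted p = 0.00148), *Chil3* by 2.69 (SE 0.56, adjusted p = 0.00138) and *Lcn2* by 2.57 (SE 0.51, adjusted p = 0.00105) on the log2 scale. *F10* rose as well (adjusted p = 0.00132), from 3 counts in all of miKO-Sham to 241 in all of miKO-tFCI, a ratio of 75.6 with a 95% counting interval of 25.6 to 369 that does not cover the spread between libraries. Of the 241 counts, 199 were in miKO-tFCI replicate 1, without which the ratio was 20.6 (6.57 to 104), and it was 151 (26.8 to 5976) without miKO-Sham replicate 2. *S100a8* rose by 1.76 (SE 0.66, adjusted p = 0.0426), whereas *S100a9*, at 1.58 (SE 0.65, adjusted p = 0.0617), did not pass although its groups did not overlap. *Ly6c2* was at 0.44 (SE 0.70, adjusted p = 0.641), with replicate 1 at 2.69 above its Sham counterpart and replicates 2 and 3 at -0.08. *Plac8* was at 2.29 (SE 0.93, adjusted p = 0.0610), with 5.57 in batch 1 and 0.30 in batch 2. The call of *S100a8* was lost without miKO-Sham replicate 1, with 5 of the 9 called, and also without miKO-Sham replicate 3, WT-tFCI replicates 2 or 3, or miKO-tFCI replicates 2 or 3. Leaving out each library in turn gave 5 to 8 called, and *Chil3*, *F10*, *Arg1*, *Retnlg* and *Lcn2* were called each time.

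The difference between genotypes without ischemia was read from miKO-Sham vs. WT-Sham. No gene of the 9 was called by edgeR, where 8.58% of all genes tested were higher and 6.80% lower. Of the 9, 2 (*Ly6c2* and *Chil3*) had an unadjusted p under 0.05, DESeq2 called 1 (*Ly6c2*), and 0 were higher without overlap between groups (17.1% of all genes). The log2 fold change was 2.28 for *Ly6c2* (SE 0.81, adjusted p = 0.0653 by edgeR) and 1.58 for *Chil3* (SE 0.60, adjusted p = 0.0827), and the adjusted p-values of the other 7 were 0.189 (*Lcn2*) or more. *F10* had 3 counts in all of miKO-Sham and 19 in all of WT-Sham, a ratio of 0.158 with a 95% counting interval of 0.030 to 0.538 that does not cover the spread between libraries. Of the 19 counts, 14 were in WT-Sham replicate 2, without which the ratio was 0.407 (0.0632 to 2.09). It was 0.102 without WT-Sham replicate 3 and 0.0795 without miKO-Sham replicate 2. For *S100a8* the difference was 0.36 (SE 0.72, adjusted p = 0.786). The batches gave opposite answers: 1 of the 9 was higher in miKO-Sham in batch 1, against 8 of the 9 in batch 2, and *S100a8* differed by -1.61 and 2.34. Without WT-Sham replicate 1, 6 of the 9 were called higher in miKO-Sham. They were *S100a8* at 2.40 (SE 0.23), *S100a9* at 2.48 (SE 0.25), *Lcn2* at 2.89 (SE 0.28), *Chil3* at 3.03 (SE 0.43), and also *Ly6c2* and *Retnlg*. That library also enters the estimate of the spread, and the share of all genes called without it was not set beside this count. Without miKO-Sham replicate 1, *Ly6c2* and *Chil3* were called, and *Chil3* alone without miKO-tFCI replicate 1. WT-Sham replicate 1 also held the highest *Mpo* and *Elane* levels of the Sham libraries, at 17.5 and 29.7 CPM. These were 0.894 and 0.335 in WT-Sham replicate 2 and 0.614 and 0.921 in replicate 3. In miKO-Sham, *Mpo* was at 4.02 to 8.45 CPM and *Elane* at 6.93 to 12.3. Other neutrophil markers were divided. *Ngp* and *Camp* were also highest in WT-Sham replicate 1 among the Sham libraries. *Ltf*, *Cd177*, *Mmp9*, *Csf3r* and *Slpi* reached more in miKO-Sham, as with *Ltf* at up to 48.8 CPM against 27.0 in WT-Sham. *Mpo* and *Elane* encode granule enzymes made by immature neutrophils in the bone marrow.

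Whether the effect of genotype depended on surgery was read from the interaction. No gene of the 9 was called by edgeR (3.82% of all genes tested were called in either direction) or by DESeq2, and 3 (*Arg1*, *Retnlg* and *F10*) had an unadjusted p under 0.05. The interaction log2 fold change was 1.88 (SE 0.62, adjusted p = 0.121) for *Arg1*, 1.94 (SE 0.97, adjusted p = 0.318) for *S100a8*, 1.35 (SE 0.75, adjusted p = 0.383) for *Lcn2* and -0.11 (SE 1.02, adjusted p = 0.974) for *Ly6c2*. *Arg1* was called without WT-Sham replicate 1, miKO-Sham replicate 3 or WT-tFCI replicate 1. Without WT-Sham replicate 1, the interaction of *S100a8* was -0.13, where miKO-Sham stood 2.40 above WT-Sham and miKO-tFCI 2.27 above WT-tFCI. The comparisons with miKO-tFCI and with WT-Sham share libraries with each other and are not independent.

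Set against the microglia markers of the same library, the genes made up a larger share in miKO-tFCI than anywhere else. The summed CPM of the 5 monocyte genes was 0.0172% to 0.260% of that of the 12 microglia markers in WT-Sham, 0.187% to 0.294% in miKO-Sham, 0.312% to 0.994% in WT-tFCI and 2.57% to 6.47% in miKO-tFCI. For the 4 neutrophil genes these shares were 0.0766% to 1.85%, 0.539% to 0.983%, 0.611% to 0.654% and 3.64% to 6.25%. In miKO-tFCI both terms of the share moved, since the microglia markers were lower there than in WT-tFCI. The 12 markers include *Cx3cr1*, the gene that carries Cre in miKO mice, with a mean of 436 CPM in miKO-tFCI and 1523 in WT-tFCI. In summed CPM alone, the monocyte genes reached 379 to 687 in miKO-tFCI against 67.8 to 212 in WT-tFCI, and the neutrophil genes 647 to 733 against 129.9 to 142.

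**Figure D3:**
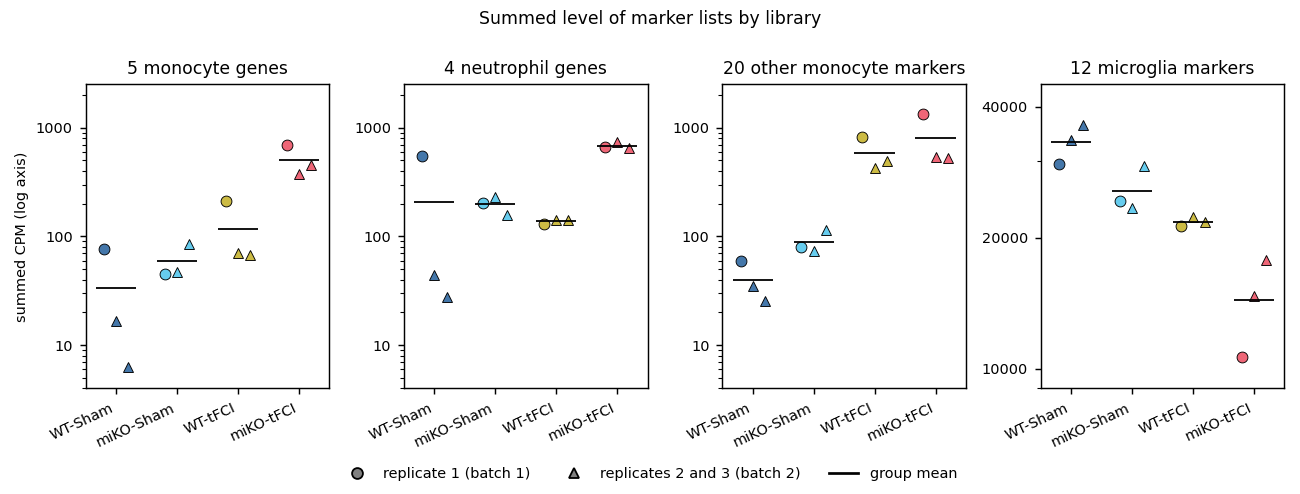
Summed CPM of the 5 monocyte genes, the 4 neutrophil genes, 20 other monocyte markers and 12 microglia markers in each library, on log axes, with circles for replicate 1, triangles for replicates 2 and 3, and lines for the group means. The neutrophil genes of WT-Sham replicate 1 reach 549 CPM, close to the 647 to 733 CPM of miKO-tFCI, while the microglia markers are lowest in miKO-tFCI, at 10616 to 17758 CPM.

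Other genes of the same cell types were read from lists of 20 monocyte and 20 neutrophil markers. Of the monocyte list, 19 were tested, and in miKO-tFCI vs. WT-tFCI 10 rose (*Ccr2*, *Ifitm6*, *Itga4*, *Itgal*, *Thbs1*, *Lyz1*, *Hp*, *Cd44*, *Gda* and *Treml4*), where 4.08% of all genes rose, with a median log2 fold change of 1.76. *Ccr2*, the receptor for *Ccl2* on inflammatory monocytes, was at 75.5, 18.4 and 22.3 CPM in miKO-tFCI and at 21.4, 3.34 and 3.16 CPM in WT-tFCI (log2 fold change 2.16, SE 0.50, adjusted p = 0.0149 by edgeR). Like *Ly6c2*, *Ccr2* was highest in replicate 1 of both tFCI groups. After ischemia 15 of the 19 rose in WT cells and 15 in miKO cells (20.9% and 21.9% of all genes). After Sham surgery 6 were higher in miKO than in WT cells (8.58% of all genes), and 11 without miKO-Sham replicate 1. The summed level of the list was 25.6 to 60.1 CPM in WT-Sham, 73.8 to 115 in miKO-Sham, 423 to 821 in WT-tFCI and 531 to 1328 in miKO-tFCI, so that the tFCI groups overlapped. *Fn1*, fibronectin, the member with 368 ± 74.4 CPM (SD, n = 3) in WT-tFCI, was at 205 ± 131 CPM in miKO-tFCI (log2 fold change -0.96, SE 0.44, adjusted p = 0.183). *Ccr2* was not among the 15 of WT cells (0.29, SE 0.54, adjusted p = 0.707). Several members of the list, such as *Cd44*, *Fn1*, *Thbs1* and *Itga4*, are also expressed by activated microglia or other cells. The count of 10 fell to between 5 and 6 without WT-tFCI replicates 2 or 3 or miKO-tFCI replicates 1 or 3.

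Of the neutrophil list, 17 were tested and 9 rose in miKO-tFCI vs. WT-tFCI (*Cxcr2*, *Mmp8*, *Il1r2*, *Cd177*, *Ltf*, *Mpo*, *Fpr1*, *Hdc* and *Slpi*), where 4.08% of all genes rose, with a median of 2.28. *Cxcr2*, the chemokine receptor that brings neutrophils out of the marrow, was at 16.1, 3.63 and 5.92 CPM in miKO-tFCI and at most 1.09 CPM in the other 9 libraries (2.99, SE 0.61, adjusted p = 0.00680 by edgeR). *Mmp8*, neutrophil collagenase, was at 9.76, 7.89 and 9.12 CPM in miKO-tFCI and at most 2.27 CPM elsewhere (3.28, SE 0.66, adjusted p = 0.00610). *Ly6g*, the surface antigen that defines mouse neutrophils, had 0 to 6 counts in every library. *Stfa2l1* had at most 9 counts and *BC100530* had 5 to 7 counts in miKO-tFCI and 0 elsewhere. *Csf3r*, which microglia also express, was the one gene of the list that fell after ischemia in either genotype, where 7 and 8 others rose (11.7% and 13.9% of all genes fell, and 20.9% and 21.9% rose). In miKO-Sham vs. WT-Sham 5 were higher (8.58% of all genes), and 8 without WT-Sham replicate 1, but 0 to 1 without WT-Sham replicates 2 or 3 or miKO-Sham replicates 2 or 3, 3 without WT-tFCI replicate 3 and 2 without miKO-tFCI replicate 2. The count of 9 in miKO-tFCI vs. WT-tFCI fell to between 3 and 5 without any of the WT-tFCI replicates or without miKO-tFCI replicates 2 or 3.

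Counts of the calprotectin subunits kept nearly 1 ratio in all libraries. The ratio of *S100a8* to *S100a9* counts lay between 0.957 and 1.29, a 1.35-fold range over the 12 libraries, across levels that spanned from 135 to 2646 counts of *S100a8*. *Ngp*, a granule protein of immature neutrophils, ranged 5.11-fold against *S100a8*, and *Lcn2* 5.49-fold. *Lcn2* to *S100a8* was 0.118 to 0.1704 in WT-Sham, 0.208 to 0.280 in miKO-Sham, 0.323 to 0.401 in WT-tFCI and 0.336 to 0.649 in miKO-tFCI, so that *Lcn2* was higher relative to *S100a8* in every tFCI library than in any Sham library. *Retnlg*, also a neutrophil gene, kept no steady ratio to *S100a8*, from 0 in WT-Sham replicate 2 to 0.107 in miKO-tFCI replicate 1. The monocyte genes kept none either. *Arg1* to *Chil3* ranged 30.5-fold, from 0.0252 in WT-Sham replicate 1 to 0.767 in miKO-tFCI replicate 1, and *Plac8* to *Chil3* ranged 114.5-fold. WT-Sham replicate 1, high in *Chil3* and *S100a8*, thus had the lowest *Arg1* to *Chil3* ratio of all libraries.

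**Figure D4:**
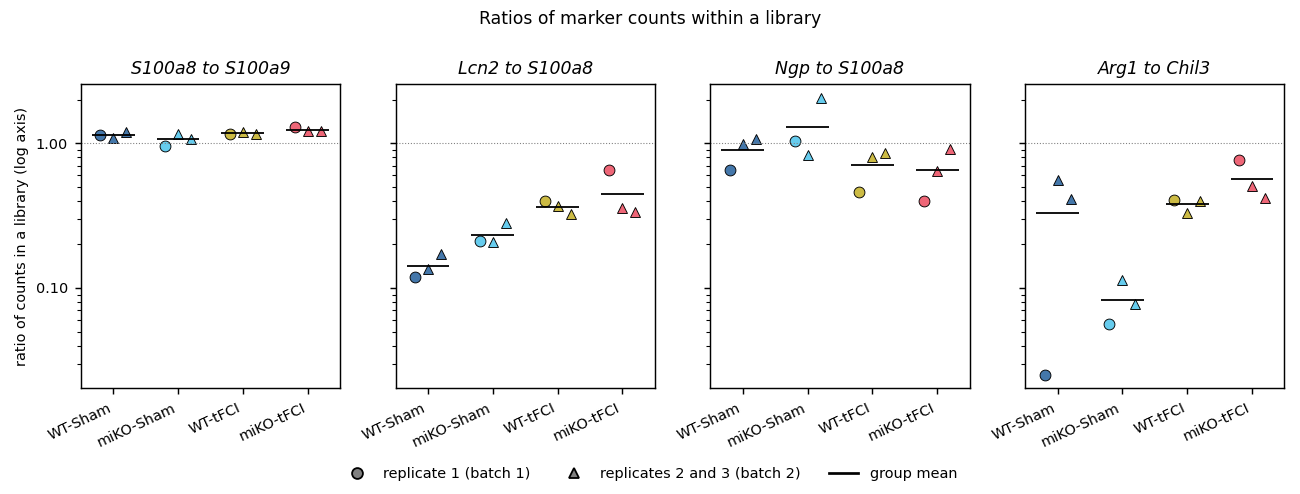
Ratios of counts of a pair of genes within each library, on a log axis, by group. Circles are replicate 1, triangles replicates 2 and 3 and lines the group means; *S100a8* to *S100a9* stays between 0.957 and 1.29 in all 12 libraries, *Lcn2* to *S100a8* is 0.118 to 0.280 in the Sham libraries and 0.323 to 0.649 in the tFCI libraries, and *Arg1* to *Chil3* spreads over a 30.5-fold range.

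Over the 12 libraries, the genes with the most similar profile were other myeloid genes for some of the 9 and not for others. These are Pearson correlations of log2 CPM over libraries that share groups and batches, among 15730 genes, and are a description. *S100a8* and *S100a9* were each other's nearest gene (r = 0.997). The nearest to *Chil3* were *Anxa1* (0.973), *Ifitm6* (0.963) and *Lcn2* (0.962), and the nearest to *Lcn2* were *Hsd11b1* (0.966), *Chil3* and *Pglyrp1* (0.95). *Arg1* was nearest to *Nxpe4* (0.982), *Has2* (0.981) and *Cd109* (0.981), none of which is among the 9. *Ly6c2* was nearest to *Nkg7* (0.946), a gene of natural killer and T cells, *Retnlg* to *Cyyr1* (0.969), *F10* to *Itih3* (0.972) and *Plac8* to *Mfap4* (0.967). Among the 9, *Plac8* and *S100a9* had the lowest correlation (0.312) and *F10* and *Plac8*, both led by replicate 1 of the tFCI groups, stood at 0.873.

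Receptors, enzymes and relatives that act with the 9 were read from a list of 25 genes, of which 20 were tested. After ischemia 3 of them were higher in miKO than in WT cells (4.08% of all genes were): *Slc7a2*, a carrier that supplies arginine (log2 fold change 1.45, SE 0.33, adjusted p = 0.0135 by edgeR), *F13a1*, the A subunit of coagulation factor XIII (1.93, SE 0.53, adjusted p = 0.0321), and *Chil1*, a chitinase-like relative of *Chil3* (3.06, SE 0.41, adjusted p = 0.000330). *Chil1* stood at 75.0, 19.0 and 20.5 CPM in miKO-tFCI and at 10.9, 2.30 and 1.22 CPM in WT-tFCI, with replicate 1 highest in both. *Nos2*, the enzyme that competes with arginase for arginine, had at most 11 counts in any library. *Tlr4*, a receptor for calprotectin, was at 0.02 (SE 0.25) in miKO-tFCI vs. WT-tFCI and fell by 0.96 (SE 0.24, adjusted p = 0.00625) in WT-tFCI vs. WT-Sham on the log2 scale. *Ly6c1*, the paralog of *Ly6c2* that brain endothelial cells express strongly, had 0 to 31 counts in the Sham libraries and 168 to 902 in the tFCI libraries, and its level in miKO-tFCI vs. WT-tFCI (0.95, SE 0.39, adjusted p = 0.141) did not pass the test. *Chil4* had at most 1 count per library. In WT-tFCI vs. WT-Sham 6 of the 20 rose and 3 fell (20.9% and 11.7% of all genes), in miKO-tFCI vs. miKO-Sham 9 rose and 4 fell (21.9% and 13.9%), and in miKO-Sham vs. WT-Sham 1 (*Cebpa*, a factor of the granulocyte lineage) was higher (8.58%).

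Markers of other cells that could enter the gate were also read, and their part in the levels of the 9 was not tested. Of 11 markers of border and monocyte-derived macrophages, 5 rose in miKO-tFCI vs. WT-tFCI (*Cd163*, *F13a1*, *Ms4a7*, *Fcna* and *Folr2*), where 4.08% of all genes rose. The summed level of the 11 was 1066 to 2318 CPM in miKO-tFCI against 737 to 1069.9 in WT-tFCI and 1491 to 1690.5 in miKO-Sham. *Stab1*, which was not among the 5, made up most of these sums. Its mean was 1139 CPM in miKO-tFCI, 653 in WT-tFCI and 1378 in miKO-Sham. The 8 dendritic cell markers summed to 55.8 to 358 CPM in miKO-tFCI against 23.0 to 118 in WT-tFCI, and 1 of 7 tested (*Ccr7*) rose (4.08% of all genes). The 14 lymphocyte markers summed to at most 42.9 CPM in any library, with 3 to 9 of them at 0. In miKO-tFCI vs. WT-tFCI, 1 of 4 tested (*Cd79b*) fell (4.71% of all genes). The 8 red cell and platelet markers summed to at most 74.4 CPM in any library, and 1 of 7 tested (*Gp9*) fell in that comparison (4.71% of all genes). The 13 markers of neurons, other glia and vessels summed to 249 to 589 CPM in miKO-tFCI, 108 to 309 in WT-tFCI and 49.9 to 75.1 in the Sham groups.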

How the data were processed

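RNA of sorted cells was measured by SMART-Seq v4 paired-end sequencing in 12 libraries, with groups, replicates and batch taken from the labels. Per the labels' processing notes, the tools were FastQC 0.11.9, Trim Galore, HISAT2 2.2.1, SAMtools and HTSeq 1.99.2 with builds mm10 and GRCm38.p6, without stated roles. The values deposited by the authors are raw read counts per gene without normalization, and lines that name no gene were left out (45.3% to 52.5% of all reads listed were on no feature). GENCODE M21 matched 55141 of 55401 identifiers, with version numbers ignored.

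In R 4.3.3, edgeR 4.0.16 was fitted to all libraries (filterByExpr, TMM factors 0.864 to 1.11, group and batch, glmQLFit and glmQLFTest), with Benjamini-Hochberg adjustment over 16451 genes. The SE is the absolute log2 fold change divided by the square root of F. CPM are on TMM-scaled totals, and intervals cover counting error only. The steps were tested on simulated data. Alternatives were RLE factors, DESeq2 1.42.0, other filters, no batch term, a replicate block, the compared groups or batch 2 alone, and each library left out. The genes named were the 9, *Hdac3*, members of the gene lists, and for each of the 9 the 3 genes most correlated with it. Genes and lists were chosen with earlier results of these data known. The study's methods call the 3 libraries of a group biological replicates, and no source states whether reads were assigned by strand.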

Additional observations from a re-analysis of the deposited data

How the results depend on the processing

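Of the 9 genes, the number called ranged widely with the settings. In WT-tFCI vs. WT-Sham, where it was 2, it was 5 without a filter on low counts, 1 without a batch term, 6 in batch 2 only, and 1 to 6 when 1 library was left out. In miKO-tFCI vs. WT-tFCI (6) it was 4 by DESeq2 (without *S100a8* and *S100a9*), 8 without a filter and 8 with only the compared groups, 2 without a batch term, and 2 to 7 when 1 library was left out. For miKO-Sham vs. WT-Sham (0) the number was 1 by DESeq2 (*Ly6c2*), 4 without a filter, 6 in batch 2 only, and 0 to 6 when 1 library was left out. In the interaction (0) it was 6 without a filter, 1 in batch 2 only (*Arg1*), and 0 to 1 when 1 library was left out. In miKO-tFCI vs. miKO-Sham (6) it stayed between 5 and 8. Without a filter, 34185 genes were fitted and the median prior degrees of freedom of the spread were infinite, against 7.67 with the filter. The cause of these changes in number was not tested for any setting. Over all genes, 1446 called in miKO-tFCI vs. WT-tFCI became 2193 without a filter, 701 without a batch term, 2535 with only the compared groups, and as few as 616 without WT-tFCI replicate 3. The 629 of the interaction became 966 by DESeq2, 1272 without a filter, 303 without a batch term and as few as 281 without WT-tFCI replicate 2 or 3. The replicate numbers were not taken as pairs, since no source says that they mark a shared batch of mice and not every same-numbered pair correlated above 0.1 in its deviations from the group means. This was so in 4 of 6 pairs for number 1 (r = 0.0978 to 0.666), 1 of 6 for number 2 (-0.0607 to 0.334) and 6 of 6 for number 3 (0.11 to 0.324), and not every library correlated best with its own number. With the replicate block, 5 of the 9 genes were called in miKO-tFCI vs. WT-tFCI, *S100a9* being lost, the other comparisons kept their number of calls, and *Plac8* was at 0.081 on the log2 scale in miKO-Sham vs. WT-Sham.

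Directions turned where no call was made in the fit over all libraries. In WT-tFCI vs. WT-Sham, the log2 fold changes of *S100a8* and *S100a9* were 0.47 and 0.40 with only the compared groups and 1.87 and 1.81 in batch 2, and when 1 library was left out they ranged from -1.02 to 1.81 and from -1.04 to 1.75, with *Ly6c2* from -0.27 to 2.94. In miKO-tFCI vs. miKO-Sham, *Ly6c2* was at -0.13 in batch 2 and ranged from -0.45 to 1.12. In miKO-tFCI vs. WT-tFCI, *Plac8* ranged from -0.64 to 1.78. In miKO-Sham vs. WT-Sham without a batch term, *S100a8*, *S100a9* and *Retnlg* were at -0.18, -0.087 and -0.19, *Plac8* was at 0.096 in batch 2, and the ranges were -0.45 to 2.40 for *S100a8*, -0.35 to 2.48 for *S100a9* and -1.20 to 1.56 for *Plac8*. In the interaction, batch 2 gave -0.76 for *Chil3*, -0.038 for *Plac8*, -0.094 for *S100a8*, -0.15 for *S100a9*, -1.36 for *Retnlg* and -0.75 for *Lcn2*, and *Ly6c2* was at 1.04 without a batch term. The interaction ranged, when 1 library was left out, from -2.34 to 0.77 for *Ly6c2*, -0.94 to 1.31 for *Chil3*, -0.47 to 2.35 for *Plac8*, -0.13 to 2.72 for *S100a8*, -0.29 to 2.54 for *S100a9*, -1.27 to 2.53 for *Retnlg* and -0.37 to 1.92 for *Lcn2*. *Retnlg*, *F10*, *Ly6c2* and *Plac8* had libraries with fewer than 10 counts, which limits their precision.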
